A study of Mus musculus with 22 samples.

Results

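The comparison described here was the difference between 2 diet responses: the response of liver mRNA to a methionine- and choline-deficient (MCD) diet in liver-*Flcn*-/- mice minus the same response in Cre mice. It was computed for every gene with a mean of at least 10 counts per library, which left 14062 of the 55573 genes in the count table, and all 22 libraries of the series entered a single fit. Cre mice carried the Albumin-Cre transgene with 2 unfloxed *Flcn* alleles, so both genotypes expressed Cre. Liver-*Flcn*-/- mice carried Albumin-Cre with floxed *Flcn* alleles whose exon 7 is removed by Cre. Albumin-Cre acts in hepatocytes, so stellate cells, macrophages, endothelial cells and lymphocytes of the same livers kept *Flcn*. The mice were C57BL/6 animals that had been given the diets for 6 weeks from 6 weeks of age. The groups were Cre mice on chow (Cre Chow, n = 6), Cre mice on MCD (Cre MCD, n = 5), liver-*Flcn*-/- mice on chow (FLCN KO Chow, n = 5) and liver-*Flcn*-/- mice on MCD (FLCN KO MCD, n = 6). The chow was a purified low-fat diet and the MCD diet came from another supplier, so methionine, choline and the other differences between the 2 diets cannot be told apart. Each library was the poly(A) RNA of 1 liver, with 13751347 to 21144388 reads counted to genes. Livers of liver-*Flcn*-/- mice are called *Flcn*-/- livers, and those of Cre mice Cre livers.

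Folliculin (FLCN) acts on the Rag GTPases at the lysosome, where it lets mTORC1 phosphorylate the transcription factors TFEB and TFE3 and so keep them in the cytoplasm. When FLCN is lost these factors enter the nucleus and switch on genes of lysosomes and their own regulators, among them *Rragd* and *Gpnmb*. The MCD diet deprives hepatocytes of phosphatidylcholine, which they need to export triglyceride, and is used in mice to provoke steatosis, inflammation, hepatocyte injury and fibrosis. A positive interaction below means that MCD moved a gene up more, or down less, in *Flcn*-/- livers than in Cre livers, and a negative interaction the opposite. Levels are CPM, read counts scaled to the library total with TMM factors. They compare livers for 1 gene and do not compare genes of unequal length. Changes are log2 fold changes from edgeR's quasi-likelihood test, with Benjamini-Hochberg adjusted p over the 14062 genes and a threshold of 0.05. Where nothing else is said, ± is the standard error of the fitted log2 value.

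*Flcn* itself (chr11:59791408-59810016, minus strand, GRCm38) was measured at 26.1 to 40.2 CPM (median 31.8) in the 6 Cre Chow livers and 24.2, 20.0, 16.7, 19.4 and 21.8 CPM in the FLCN KO Chow livers. On MCD *Flcn* was at 31.7, 18.2, 39.9, 32.5 and 23.6 CPM in the Cre livers and 17.6 to 32.6 CPM (median 26.6) in the 6 *Flcn*-/- livers. Its mRNA was lower in *Flcn*-/- livers on chow (−0.63 ± 0.17 (SE), adjusted p = 0.025), where the groups did not overlap, but on MCD the groups overlapped (−0.16 ± 0.17 (SE), adjusted p = 0.57). The counts cover the whole gene and also the cells that Albumin-Cre does not reach, so the deletion of exon 7 was checked only in part. The TFEB and TFE3 target *Rragd*, a Rag GTPase gene, separated the genotypes without overlap on both diets, with 1.5 to 2.59 CPM (median 2.43) in the 6 Cre Chow livers and 41.7, 17.2, 40.5, 37.9 and 28.6 CPM in the FLCN KO Chow livers. On MCD *Rragd* was at 7.58, 5.82, 9.89, 3.83 and 6.71 CPM in the Cre livers and 45.5 to 74.3 CPM (median 63.9) in the 6 *Flcn*-/- livers. The genotype difference of *Rragd* was 3.91 ± 0.25 (SE), adjusted p = 7.8e-10 on chow and 3.18 ± 0.24 (SE), adjusted p = 2.5e-08 on MCD, and its interaction did not pass the test (−0.73 ± 0.33 (SE), adjusted p = 0.17).

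Some libraries stood apart. The liver Cre MCD 3 held 3811 CPM summed over 15 skeletal muscle genes, of which the myosin gene *Myh1* was the most abundant, against 183 CPM in Cre MCD 4, 87.6 CPM in FLCN KO MCD 3 and at most 37.6 CPM in the other livers. Cre MCD 3 was also the highest of its group for summed B cell, mesothelial and smooth muscle markers. The labels give no sex, but 12 livers held *Xist* RNA and 10 did not, with 3 *Xist*-positive livers in each group. Cre MCD 1 and FLCN KO Chow 2 held *Xist* together with Y-linked counts at 15.6% and 15.1% of the median of the livers without *Xist*. In FLCN KO MCD 3, FLCN KO Chow 4 and Cre Chow 2, also with *Xist*, this share was 6.81%, 6.64% and 6.15%. It was at most 1.77% in the other livers with *Xist*. All 5 chow livers without *Xist* were also the 5 chow livers whose stated share of uniquely mapped reads was under 75%, so sex and this property of the library cannot be told apart on chow. With an interaction fitted in each sex, 0 genes differed between the sexes at adjusted p under 0.05 (edgeR, lowest adjusted p = 0.28, 748 genes at unadjusted p under 0.05). Markers of hepatocytes were high in every liver, and 1 of the 8 hepatocyte markers was called for the interaction (*Ttr*, transthyretin, 0.60).

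The diet changed much of the transcriptome in both genotypes, and 1242 genes responded differently in *Flcn*-/- livers. In Cre livers 4121 genes rose (29.3%) and 3968 fell (28.2%) on MCD, which is 57.5% of the genes tested. In *Flcn*-/- livers 3162 rose (22.5%) and 3166 fell (22.5%), which is 45% of them. The interaction was negative for 779 genes (5.54% of those tested) and positive for 463 (3.29%), or 8.83% in either direction. The median interaction over all genes tested was 0.03. The largest class was the lost rise, 455 genes that rose on MCD in Cre livers and did not pass the test in *Flcn*-/- livers. A further 190 genes lost a fall, 84 gained a rise, 94 gained a fall, 82 responded in opposite directions, 299 kept the direction with a smaller response and 36 with a larger one, and 2 passed in neither genotype alone. The class counts moved by over 1.5 times with 1 liver left out. Lost rises and falls together (645) became 403 without Cre MCD 1 and 418 without FLCN KO Chow 4, and gained ones (178) became 117 and 109 without the same livers. Opposite responses became 54 without FLCN KO Chow 4, and smaller responses 456 without Cre MCD 3. Larger ones became 56 without Cre MCD 2, 23 without Cre Chow 3 or FLCN KO MCD 6, 22 without FLCN KO MCD 3, 21 without Cre MCD 1 and 20 without Cre MCD 4. These classes describe the genes called for the interaction, and only the interaction itself was a test of the difference.

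**Figure D1:**
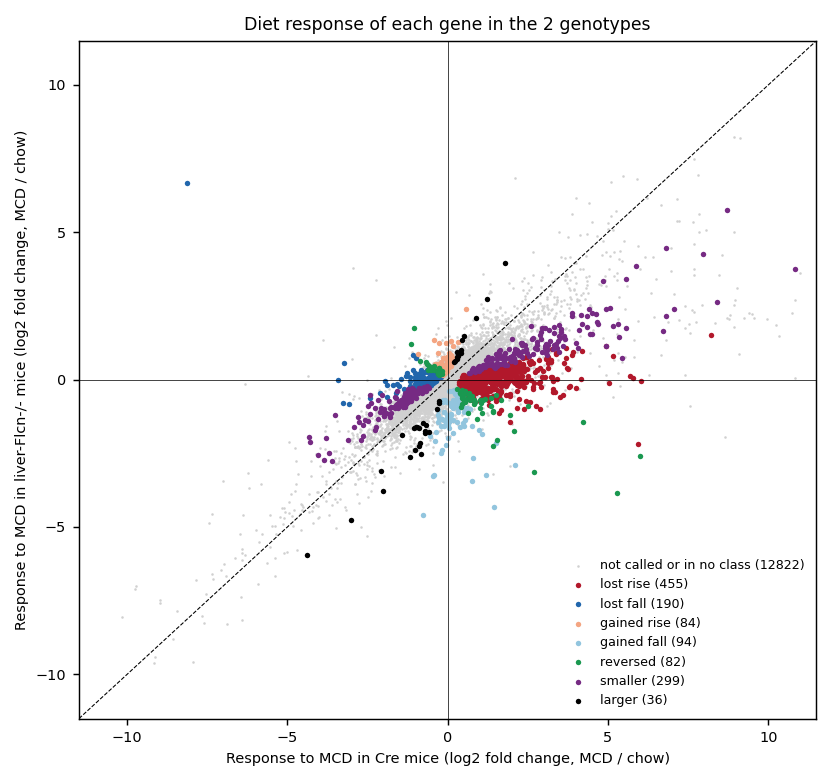
Diet response (log2 fold change, MCD against chow) in Cre livers on the horizontal axis and in *Flcn*-/- livers on the vertical axis, 1 point per gene tested, with the 1242 genes called for the interaction coloured by class. Genes of the lost rise class lie to the right near 0 on the vertical axis, and the diagonal line marks equal responses in both genotypes.

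By the number of genes that passed the test, more of the difference lay on MCD than on chow. By median size, genes with a negative interaction differed on both diets by like amounts. Of the 1242 genes, 677 (54.5%) differed between the genotypes on MCD only, 268 (21.6%) on chow only, 93 on both diets and 204 on neither diet taken alone. As background, 16.6% of all genes tested differed between the genotypes on MCD (8.06% higher and 8.53% lower without *Flcn*) and 8.62% on chow (5.52% higher and 3.1% lower). The 779 genes with a negative interaction leaned on both diets: 254 were higher in *Flcn*-/- livers on chow and 446 were lower on MCD, with median genotype differences of +0.62 on chow and −0.70 on MCD. Their median diet response was 1.36 in Cre livers and −0.03 in *Flcn*-/- livers. Of the 463 genes with a positive interaction, 99 were lower on chow and 299 higher on MCD, with medians of −0.20 and +0.39. In all, 361 of the genes differed on chow, but 169 without FLCN KO Chow 4 and 234 without FLCN KO Chow 5, and 770 differed on MCD, but 494 without Cre MCD 1 and 508 without FLCN KO MCD 6. The 463 positive interactions became 272 without Cre MCD 1, 284 without FLCN KO Chow 4 and 308 without FLCN KO MCD 3.

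**Figure D2:**
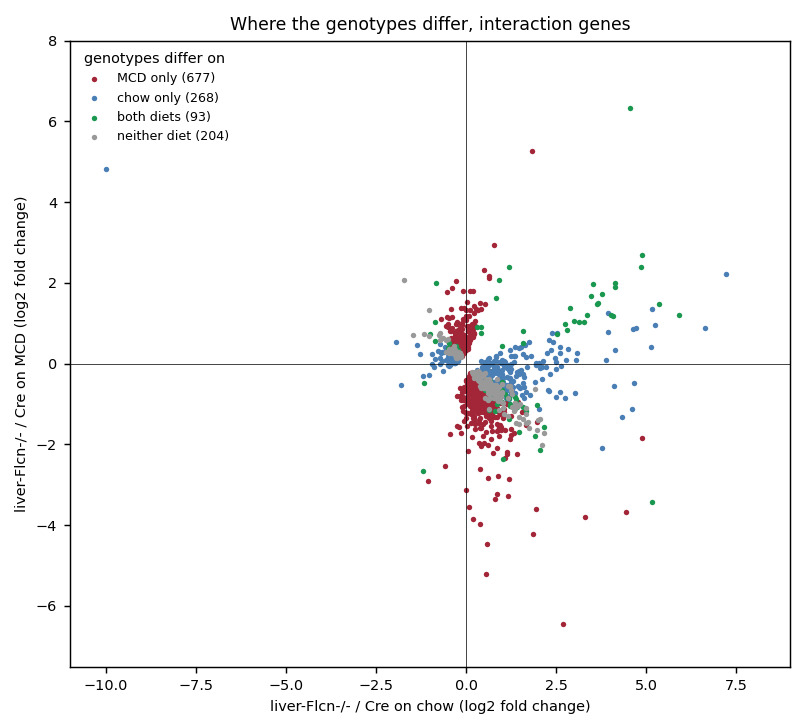
Genotype difference (log2 fold change, FLCN KO against Cre) on chow on the horizontal axis and on MCD on the vertical axis for the 1242 genes called for the interaction, coloured by the diet on which the genotypes differed. Genes that differed on MCD only lie along the vertical line through 0, and most that differed on chow only lie to its right, higher in *Flcn*-/- livers.

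The scaling of the libraries bears on the direction of small changes. The TMM factors were below 1 in all 11 chow libraries and above 1 in all 11 MCD libraries, and higher in FLCN KO Chow than in Cre Chow. With library totals alone, the median diet response of all genes was 0.43 in Cre livers and 0.27 in *Flcn*-/- livers, and the median interaction was −0.13. Then 7900 genes rose and 1748 fell in Cre livers, 5803 rose and 1731 fell in *Flcn*-/- livers, and on chow 1452 were higher and 125 lower without *Flcn*. The share of negative interactions then rose from 62.7% to 87.5% of the genes called (1236 negative, 177 positive). All changes given here are therefore relative to the bulk of the genes, and counts of members that rose or fell in a list move with the scaling. With library totals alone the members that rose in *Flcn*-/- livers went from 11 to 17 for the markers of lipid-associated and infiltrating macrophages, from 2 to 9 for mitosis, from 16 to 27 for DNA replication, from 10 to 16 for the cytoskeleton and injured epithelium and from 3 to 6 for stellate cells. The median interaction of the MiT-TFE list turned from 0.08 to −0.08, and that of glucose and glycogen metabolism from 0.11 to −0.06.

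Genes of the extracellular matrix rose on MCD in Cre livers and mostly did not in *Flcn*-/- livers. Of 49 collagens and matrix proteins tested, 30 rose in Cre livers and 6 in *Flcn*-/- livers, where 13 fell (6 fell with library totals alone). The interaction was negative for 21 and positive for 1, and 45 of 49 had a negative sign. The median diet response of the list was 0.79 in Cre livers and −0.33 in *Flcn*-/- livers, beside 0.01 and 0.00 over all genes tested. *Col1a1* (chr11:94936224-94953042, plus strand), the main chain of type I collagen in scars, was at 2.77 to 8.88 CPM (median 3.98) in the 6 Cre Chow livers and 11.6, 7.19, 3.56, 19.7 and 13.2 CPM in the FLCN KO Chow livers. On MCD *Col1a1* was at 37.6, 16, 41, 39.2 and 15.8 CPM in the Cre livers and 4.15 to 14 CPM (median 8.58) in the 6 *Flcn*-/- livers. Every Cre liver on MCD exceeded every other liver except FLCN KO Chow 4, whose value lay above 2 of them. The interaction of *Col1a1* was −2.99 ± 0.55 (SE), adjusted p = 0.0027, with a rise of 2.67 in Cre livers and −0.32 (adjusted p = 0.52) in *Flcn*-/- livers.

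The type IV collagen genes *Col4a1* and *Col4a2* rose in both genotypes, but less without *Flcn*. *Col4a2* (chr8:11312805-11449287, plus strand), which forms the type IV network with *Col4a1*, stood at 19.7 to 24.5 CPM (median 22.1) in the 6 Cre Chow livers and 28.6, 27.2, 30.5, 31.5 and 32.3 CPM in the FLCN KO Chow livers. On MCD *Col4a2* was at 68.1, 54.9, 66.1, 65.9 and 44.1 CPM in the Cre livers and 35 to 48.7 CPM (median 38.8) in the 6 *Flcn*-/- livers. All *Flcn*-/- livers on chow lay above all Cre livers on chow, and on MCD only FLCN KO MCD 1 and 2 reached the lowest Cre value. The interaction was −1.01 ± 0.15 (SE), adjusted p = 0.00071 for *Col4a2* and −1.18 ± 0.20 (SE), adjusted p = 0.0013 for *Col4a1*. *Col6a3*, a chain of type VI collagen around cells, lost its rise (interaction −1.93 ± 0.37 (SE), adjusted p = 0.0033). *Col4a3* (chr1:82586921-82722059, plus strand), a type IV chain typical of kidney basement membrane, moved differently, with 0.135 to 0.432 CPM (median 0.282) in the 6 Cre Chow livers and 6.3, 3.33, 2.35, 5.35 and 6.74 CPM in the FLCN KO Chow livers. On MCD *Col4a3* was at 0.206, 0.259, 0.281, 0.0485 and 0.256 CPM in the Cre livers and 0.286 to 0.83 CPM (median 0.449) in the 6 *Flcn*-/- livers. It was high only in the *Flcn*-/- livers on chow, which did not overlap any other liver, and its fall on MCD there was −3.26 ± 0.33 (SE), adjusted p = 1.1e-07.

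Enzymes that process and crosslink matrix rose more often in Cre livers. Of 41 tested, 27 rose and 5 fell in Cre livers, 15 rose and 10 fell in *Flcn*-/- livers (medians of 0.91 and 0.09), and the interaction was negative for 15 and positive for 0. *Adamts2* (chr11:50602084-50807573, plus strand), which cleaves the amino end of procollagen, was at 3.00 to 5.66 CPM (median 4.77) in the 6 Cre Chow livers and 7.24, 6.12, 3.76, 10.4 and 8.19 CPM in the FLCN KO Chow livers. On MCD *Adamts2* was at 11.7, 6.51, 11.2, 8.93 and 5.94 CPM in the Cre livers and 2.69 to 5.12 CPM (median 3.58) in the 6 *Flcn*-/- livers. It rose in Cre livers (0.99, adjusted p = 0.0013) and fell in *Flcn*-/- livers (−0.96, adjusted p = 0.0026), and on MCD the genotypes did not overlap. *Pcolce*, an enhancer of procollagen cleavage, also reversed (interaction −1.29 ± 0.26 (SE), adjusted p = 0.0049). *Loxl1*, a lysyl oxidase that crosslinks elastin, was already higher on chow (1.35, adjusted p = 0.004), and its interaction was −2.08 ± 0.39 (SE), adjusted p = 0.0031. Markers of stellate cells and myofibroblasts, the main matrix-making cells of the liver, rose for 17 of 27 genes in Cre livers and 3 in *Flcn*-/- livers, with 8 negative interactions and 0 positive ones. Among them *Cygb*, cytoglobin of stellate cells, had an interaction of −1.17 ± 0.22 (SE), adjusted p = 0.0033. Of the 8 stellate cell and myofibroblast markers kept as a cell type list, which include *Col1a1* and *Col3a1*, 3 had a negative interaction, with a median of −1.55. Without Cre MCD 3 these values were 2 and −0.77. In bulk liver RNA, fewer stellate cells and less RNA per stellate cell cannot be told apart. Other mesenchymal markers moved beside them. *Des* and *Acta2* are in both the smooth muscle list and this stellate cell list, so the lists partly count the same genes. Of 5 smooth muscle markers, 4 rose in Cre livers and 0 in *Flcn*-/- livers, all 5 interactions had a negative sign with a median of −1.98 (−0.66 without Cre MCD 3), and 1 was called. Their sum, of which *Des* was the most abundant, was at most 30.2 CPM in the Cre Chow livers, 207.2 CPM in Cre MCD 3, 31.4 to 60.1 CPM in the other Cre MCD livers and at most 35.6 CPM in the *Flcn*-/- livers. Of 5 mesothelial markers, 4 had a negative sign with a median of −0.99 (−0.53 without Cre MCD 3), and edgeR called 0 (2 at unadjusted p under 0.05). The part of these cells in the matrix result was not tested. Of 36 genes of the TGF-beta and activin pathway, which drives matrix production, 7 had a negative and 0 a positive interaction. They included *Ltbp2* (−2.52 ± 0.46 (SE), adjusted p = 0.0024), a protein that binds microfibrils, the TGF-beta-induced matrix gene *Tgfbi* (−1.06 ± 0.22 (SE), adjusted p = 0.0054) and the secreted regulator *Fstl1* (−1.83 ± 0.39 (SE), adjusted p = 0.0071).

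**Figure D3:**
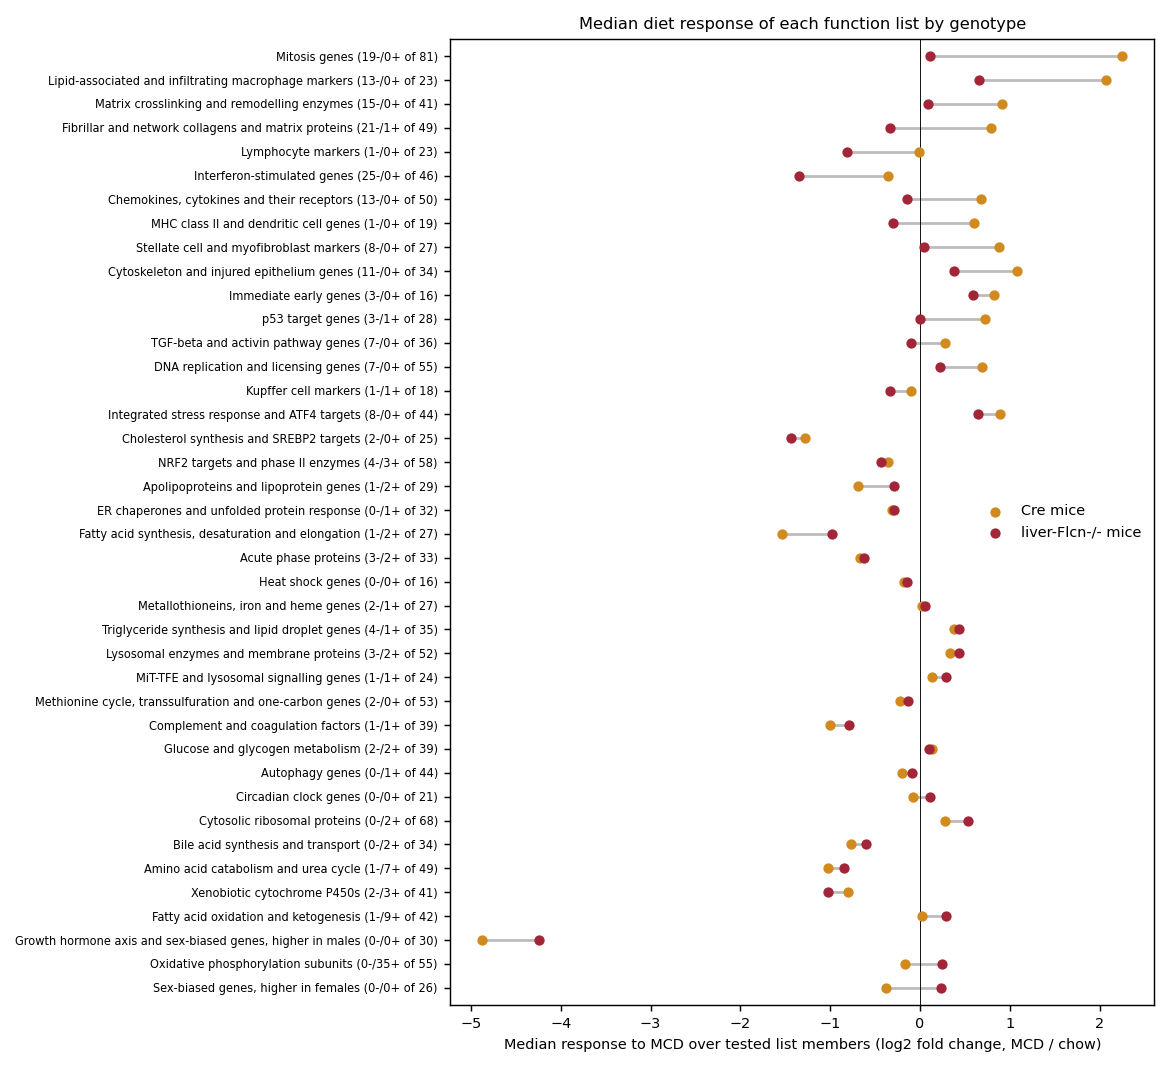
Median diet response (log2 fold change, MCD against chow) of the genes tested in each function list, in Cre livers and in *Flcn*-/- livers, with the number of genes called for the interaction in each direction. Mitosis genes lie at 2.25 in Cre livers and 0.11 in *Flcn*-/- livers, and oxidative phosphorylation subunits lie below 0 in Cre livers and above 0 in *Flcn*-/- livers.

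Macrophage genes rose on MCD in both genotypes, for fewer genes without *Flcn*. Of 23 markers of lipid-associated and infiltrating macrophages, 20 rose in Cre livers and 11 in *Flcn*-/- livers, and 13 had a negative and 0 a positive interaction. The median response was 2.07 in Cre livers and 0.66 in *Flcn*-/- livers. *Trem2* (chr17:48346401-48354147, plus strand), a lipid receptor of macrophages that gather around dying fatty hepatocytes, was at 0.316 to 0.88 CPM (median 0.52) in the 6 Cre Chow livers and 1.56, 0.951, 1.21, 3.2 and 1.67 CPM in the FLCN KO Chow livers. On MCD *Trem2* was at 13.8, 10.5, 17, 18.1 and 11.9 CPM in the Cre livers and 3.77 to 13.2 CPM (median 4.88) in the 6 *Flcn*-/- livers. The *Flcn*-/- livers were higher on chow without overlap (1.65 ± 0.40 (SE), adjusted p = 0.011). On MCD they were lower (−1.16 ± 0.30 (SE), adjusted p = 0.0098), and only FLCN KO MCD 2 overlapped the Cre livers. *Mmp12* (chr9:7344381-7369499, plus strand), the macrophage elastase, stood at 0.0791 to 0.609 CPM (median 0.521) in the 6 Cre Chow livers and 1.87, 1.6, 1.61, 0.772 and 2.43 CPM in the FLCN KO Chow livers. On MCD *Mmp12* was at 123, 56, 148, 147 and 77.6 CPM in the Cre livers and 9.19 to 56.2 CPM (median 28.2) in the 6 *Flcn*-/- livers. Its rise was 7.97 in Cre livers and 4.26 in *Flcn*-/- livers, and the interaction was −3.71 ± 0.66 (SE), adjusted p = 0.0021. *Gpnmb*, a glycoprotein of lysosomes and a TFE3 target, rose on MCD to a like level in both genotypes (genotype difference on MCD 0.09 ± 0.40 (SE), adjusted p = 0.91) from a higher start on chow (3.04 ± 0.70 (SE), adjusted p = 0.0082). Its interaction of −2.95 (adjusted p = 0.029) was called in 20 of the 22 fits that left out 1 liver, and not without FLCN KO Chow 4 (adjusted p = 0.064) or FLCN KO Chow 5 (adjusted p = 0.059).

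*Lpl* and *Cx3cr1* lay high on chow already. *Lpl* (chr8:68880491-68907448, plus strand), lipoprotein lipase, of which adult hepatocytes make little, was at 22.2 to 49.7 CPM (median 27) in the 6 Cre Chow livers and 136, 61.6, 101, 79.6 and 89 CPM in the FLCN KO Chow livers. On MCD *Lpl* was at 405, 189, 343, 304 and 354 CPM in the Cre livers and 116 to 341 CPM (median 208) in the 6 *Flcn*-/- livers. The *Flcn*-/- livers on chow lay above all Cre livers on chow (1.59 ± 0.25 (SE), adjusted p = 0.00026), and the interaction was −2.16 ± 0.35 (SE), adjusted p = 0.0012. *Cx3cr1* (chr9:119901616-120069879, minus strand), the fractalkine receptor of monocytes and macrophages, stood at 0.247 to 0.744 CPM (median 0.515) in the 6 Cre Chow livers and 2.65, 2.26, 1.21, 10.5 and 3.34 CPM in the FLCN KO Chow livers. On MCD *Cx3cr1* was at 5.39, 3.49, 6.56, 6.26 and 3.18 CPM in the Cre livers and 1.51 to 4.48 CPM (median 3.21) in the 6 *Flcn*-/- livers. The chow groups did not overlap, FLCN KO Chow 4 was the highest of all livers, and the interaction of −3.75 ± 0.61 (SE), adjusted p = 0.0011 was −2.99 (adjusted p = 0.0015) without that liver. Of 50 chemokines, cytokines and their receptors, 13 had a negative and 0 a positive interaction. *Ccl5*, which attracts T cells and monocytes, lost its rise with a difference on chow (interaction −2.10 ± 0.40 (SE), adjusted p = 0.0033). *Cxcl10*, an interferon-induced chemokine, lost it with a difference on MCD (−2.03 ± 0.45 (SE), adjusted p = 0.0089), and *Csf1*, the growth factor of macrophages, reversed (−1.13 ± 0.25 (SE), adjusted p = 0.0075). *Spp1*, osteopontin, lost its rise (−1.56 ± 0.31 (SE), adjusted p = 0.0047). Of the 7 infiltrating macrophage markers kept as a cell type list, 6 had a negative interaction. In the longer Kupffer cell list edgeR called 2 of 18 genes, 1 positive and 1 negative (11.1%, against 8.83% of all genes tested). It called 0 of the 8 Kupffer cell markers kept as a cell type list (3 at unadjusted p under 0.05). Of 5 neutrophil markers it called 0 (2 at unadjusted p under 0.05). The summed infiltrating macrophage markers, of which *Lyz2* was the most abundant, were at 70.5 to 98.9 CPM (median 91.5) in the 6 Cre Chow livers and 145, 122, 124, 121 and 118 CPM in the FLCN KO Chow livers. On MCD the sum was at 373, 229, 561, 463 and 273 CPM in the Cre livers and 147 to 424 CPM (median 269) in the 6 *Flcn*-/- livers.

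*Lgals1* (chr15:78926725-78930465, plus strand), galectin-1, a sugar-binding protein of mesenchymal and immune cells and among the stellate cell markers, was at 7.47 to 16.4 CPM (median 12.5) in the 6 Cre Chow livers and 82.3, 27.3, 52.7, 63.7 and 42.9 CPM in the FLCN KO Chow livers. On MCD *Lgals1* was at 56.5, 39.2, 54, 71.2 and 48.3 CPM in the Cre livers and 34.9 to 88.6 CPM (median 48.6) in the 6 *Flcn*-/- livers. The *Flcn*-/- livers on chow overlapped those on MCD, and only the Cre livers on chow stood apart. The genotype difference was 2.12 ± 0.27 (SE), adjusted p = 2e-05 on chow and 0.07 ± 0.26 (SE), adjusted p = 0.89 on MCD.

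Mitosis genes rose on MCD in Cre livers and for few genes in *Flcn*-/- livers, with a wide spread between Cre livers. Of 81 tested, 73 rose on MCD in Cre livers and 2 in *Flcn*-/- livers, with median responses of 2.25 and 0.11. The interaction was negative for 19 and positive for 0, and 78 of 81 had a negative sign. On MCD 12 were lower and 0 higher in *Flcn*-/- livers, with a median difference of −1.20. On chow 0 were higher and 1 lower, but the median difference was 0.88, so the interaction drew on both diets. Of the 19 genes called for the interaction, 14 differed between the genotypes on neither diet alone. *Cdc20* (chr4:118432901-118437352, minus strand), the activator of the anaphase-promoting complex, was at 0.677 to 2.55 CPM (median 0.905) in the 6 Cre Chow livers and 10.3, 5.64, 2.49, 2.81 and 5.23 CPM in the FLCN KO Chow livers. On MCD *Cdc20* was at 26.1, 4.48, 1.78, 38.3 and 2.97 CPM in the Cre livers and 0.668 to 10.1 CPM (median 2.75) in the 6 *Flcn*-/- livers. Cre MCD 1 and 4 were far above the rest, Cre MCD 3 overlapped the Cre livers on chow, and FLCN KO MCD 4 was the highest of its group. The interaction of −4.12 ± 1.05 (SE), adjusted p = 0.019 became −3.39 (adjusted p = 0.048) without Cre MCD 4. The number of mitosis genes called was 2 without Cre MCD 1 or Cre MCD 4 and 40 without Cre MCD 3. It was 6 without Cre Chow 5, FLCN KO Chow 1 or FLCN KO MCD 3, 7 without FLCN KO MCD 6 and 8 without Cre Chow 1, Cre Chow 4 or FLCN KO Chow 4. Without FLCN KO MCD 5 it was 9, without FLCN KO Chow 2 or 5 it was 10, without FLCN KO MCD 1 it was 12 and without FLCN KO MCD 4 it was 58. It was 2 with limma-voom, 39 with DESeq2 and 0 without the chow libraries of low uniquely mapped share. With the interaction fitted in each sex it was 39 in livers with *Xist* (median interaction −3.23) and 0 in livers without it (median −1.71). The test of the difference between the sexes called 0 genes.

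The promoters of the mitosis genes called are shown because 13 of the 14 with a RefSeq promoter (92.9%) held TTTGAA, the core of the cell cycle genes homology region bound by the MuvB complex, against 14.7% of the 10546 genes tested with a promoter. Both strands of the 300 bases from 250 before to 50 after the gene start were searched (RefSeq, GRCm38.p6). CCAAT, the NF-Y motif that often lies beside it, was in 13 of 14 (42.9% of the genes tested), and TTCCCGC, an E2F motif, in 0 of 14 (9.38%). The share among mitosis genes that were not called was not computed, so a link of these motifs to the interaction was not tested. The 4 genes of this list with the smallest interaction p are printed 5′ to 3′ on the strand of the gene, with TTTGAA in capitals. The windows lie at chr4:118437314-118437413 for *Cdc20*, chr8:22185866-22185965 for *Ckap2*, chr6:125191655-125191754 for *Ncapd2* and chr15:99651627-99651726 for *Racgap1*, all on the minus strand.
Cdc20: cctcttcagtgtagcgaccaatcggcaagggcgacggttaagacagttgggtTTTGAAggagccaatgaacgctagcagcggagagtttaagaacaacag
Ckap2: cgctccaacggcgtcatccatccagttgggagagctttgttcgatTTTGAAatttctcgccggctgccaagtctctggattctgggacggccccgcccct
Ncapd2: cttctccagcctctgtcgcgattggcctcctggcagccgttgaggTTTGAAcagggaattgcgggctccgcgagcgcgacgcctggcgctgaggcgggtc
Racgap1: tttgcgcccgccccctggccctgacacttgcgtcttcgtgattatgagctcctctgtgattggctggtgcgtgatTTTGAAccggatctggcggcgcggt
*Ncapd2*, a condensin subunit, lost a rise of 0.98 (interaction −1.24 ± 0.33 (SE), adjusted p = 0.022), *Ckap2*, a spindle protein, of 2.87 (−3.88 ± 1.04 (SE), adjusted p = 0.024) and *Racgap1*, needed for cytokinesis, of 3.04 (−2.97 ± 0.81 (SE), adjusted p = 0.026). *Ckap2* and *Racgap1* were not called without Cre MCD 1 (adjusted p = 0.051 and 0.055) or without Cre MCD 4 (adjusted p = 0.056 and 0.058). Without FLCN KO MCD 4 the interaction was −4.76 for *Cdc20*, −4.63 for *Ckap2* and −3.56 for *Racgap1*. Of 55 DNA replication genes, 35 rose in Cre livers and 16 in *Flcn*-/- livers. The interaction was negative for 7 and positive for 0 (12.7%, against 8.83% of all genes tested). This count was 4 without Cre Chow 5, Cre MCD 1, Cre MCD 4, FLCN KO Chow 4, FLCN KO MCD 3 or FLCN KO MCD 6, 12 without Cre MCD 3 and 15 without FLCN KO MCD 4, and 12 with library totals alone. The median interaction of the list was −0.79 in livers with *Xist* and −0.01 in livers without it. *Uhrf1*, which maintains DNA methylation at replication, had an interaction of −3.16 ± 0.57 (SE), adjusted p = 0.0024 and *Cdc6*, which licenses origins, of −2.45 ± 0.58 (SE), adjusted p = 0.013.

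Some genes of the cytoskeleton and injured epithelium, a list that also holds genes of other cells, rose less without *Flcn*. Of the 34 tested, 25 rose in Cre livers and 10 in *Flcn*-/- livers, and 11 had a negative and 0 a positive interaction. *Krt8* (chr15:101996698-102004482, minus strand), a keratin of hepatocyte inclusion bodies, was at 144 to 179 CPM (median 169) in the 6 Cre Chow livers and 159.7, 146, 126, 189 and 170.3 CPM in the FLCN KO Chow livers. On MCD *Krt8* was at 657, 745, 359.7, 685 and 512 CPM in the Cre livers and 159 to 287 CPM (median 217) in the 6 *Flcn*-/- livers. The chow groups overlapped (−0.06 ± 0.16 (SE), adjusted p = 0.86), and on MCD every *Flcn*-/- liver lay below every Cre liver (−1.42 ± 0.16 (SE), adjusted p = 3.8e-06). *Anxa2*, annexin A2, rose by 3.48 in Cre livers and 1.84 in *Flcn*-/- livers (interaction −1.64 ± 0.31 (SE), adjusted p = 0.0031). *Anxa5*, annexin A5, was instead higher on chow (1.09, adjusted p = 2.1e-05) and met the Cre level on MCD. Of 44 genes of the integrated stress response, through which the factor ATF4 answers amino acid shortage, 8 had a negative and 0 a positive interaction, but 22 of 44 still rose in *Flcn*-/- livers, against 31 in Cre livers. With limma-voom 3 of them were called, and 5 were called when FLCN KO MCD 6 was left out. The median interaction of this list was −0.59 in livers with *Xist* and −0.04 in livers without it. *Atf3* (chr1:191170296-191218039, minus strand), a stress-induced transcription factor, was at 0.723 to 2.37 CPM (median 1.73) in the 6 Cre Chow livers and 2.26, 2.44, 1.14, 2.04 and 3.18 CPM in the FLCN KO Chow livers. On MCD *Atf3* was at 35.6, 41.9, 22.6, 30.0 and 21.1 CPM in the Cre livers and 6.77 to 13.3 CPM (median 9.91) in the 6 *Flcn*-/- livers. The groups on chow overlapped and those on MCD did not, and the interaction was −1.98 ± 0.37 (SE), adjusted p = 0.0031. *Slc7a5* (chr8:121881150-121907694, minus strand), the large neutral amino acid transporter, was at 2.5 to 3.29 CPM (median 2.61) in the 6 Cre Chow livers and 2.72, 3.33, 3.09, 2.54 and 2.48 CPM in the FLCN KO Chow livers. On MCD *Slc7a5* was at 6.55, 5.34, 3.94, 4.32 and 4.87 CPM in the Cre livers and 1.76 to 3.05 CPM (median 2.51) in the 6 *Flcn*-/- livers. Its rise passed the test in Cre livers (0.86) and not without *Flcn* (−0.19, adjusted p = 0.35), the MCD groups did not overlap, and its interaction was −1.05 ± 0.22 (SE), adjusted p = 0.0056. *Hmox1*, heme oxygenase of the NRF2 list of oxidative stress genes, kept a smaller rise (−1.10 ± 0.17 (SE), adjusted p = 0.00091).

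*Crp* and *Pklr* showed the opposite pattern, a fall in Cre livers that *Flcn*-/- livers did not have. *Crp* (chr1:172698055-172833031, plus strand), C-reactive protein made by hepatocytes, was at 399 to 479 CPM (median 456) in the 6 Cre Chow livers and 429, 442, 517, 545 and 457 CPM in the FLCN KO Chow livers. On MCD *Crp* was at 131, 62.7, 176, 117 and 113 CPM in the Cre livers and 302 to 493 CPM (median 439) in the 6 *Flcn*-/- livers. The 5 Cre livers on MCD were the lowest of all 22 without overlap, and the interaction was 1.70 ± 0.25 (SE), adjusted p = 0.00062. *Lbp*, the lipopolysaccharide-binding protein, did likewise (1.11 ± 0.26 (SE), adjusted p = 0.013). In livers without *Xist* it was 0.31 (adjusted p = 0.72), and the difference between the sexes did not pass the edgeR test (adjusted p = 0.75). These 2 were the acute phase genes with a positive interaction among 33 tested, and 3 others had a negative one (15.2% called, against 8.83% of all genes tested). The list's median interaction was −0.01. *Pklr* (chr3:89136142-89146784, plus strand), the pyruvate kinase of hepatocytes, was at 299 to 446 CPM (median 391) in the 6 Cre Chow livers and 393, 277, 437, 371 and 461 CPM in the FLCN KO Chow livers. On MCD *Pklr* was at 126, 214, 356, 174 and 176 CPM in the Cre livers and 479 to 711 CPM (median 628) in the 6 *Flcn*-/- livers. It fell in Cre livers (−0.86, adjusted p = 0.001) and rose in *Flcn*-/- livers (0.63, adjusted p = 0.014), and on MCD the genotypes did not overlap. With library totals alone the fall of *Pklr* was −0.44 (adjusted p = 0.053). Its counterpart *Pkm* (chr9:59656368-59679375, plus strand), the pyruvate kinase of most other cells, moved the other way, with 10.2 to 17.4 CPM (median 14) in the 6 Cre Chow livers and 13.9, 20.4, 14.8, 19.8 and 21.6 CPM in the FLCN KO Chow livers. On MCD *Pkm* was at 39.7, 29, 64.1, 54.4 and 34.1 CPM in the Cre livers and 15.1 to 28.4 CPM (median 19.5) in the 6 *Flcn*-/- livers. The rise of *Pkm* in Cre livers, 1.68, was lost, with an interaction of −1.54 ± 0.28 (SE), adjusted p = 0.0026. Over the 39 genes of glucose and glycogen metabolism 2 interactions were positive and 2 negative (10.3%, against 8.83% of all genes tested). With library totals alone 1 was positive and 5 were negative.

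**Figure D4:**
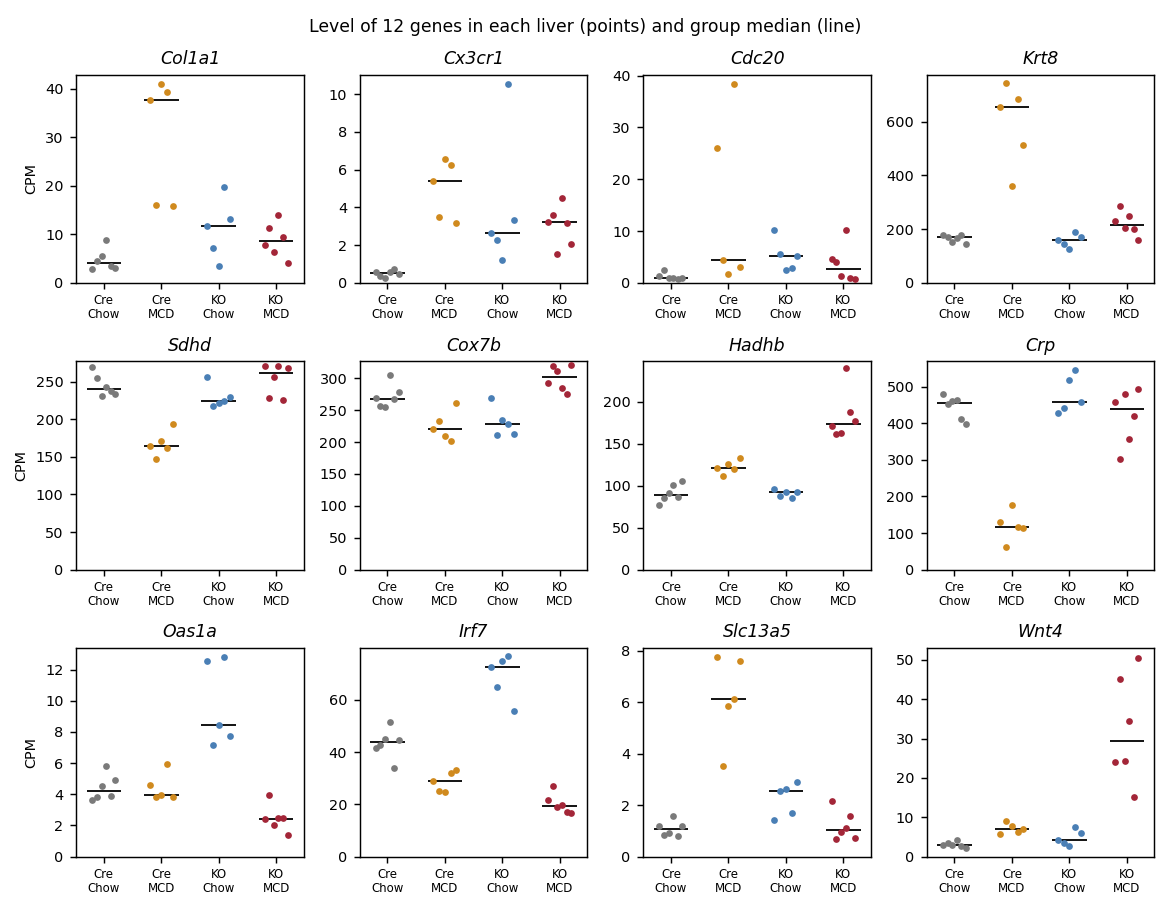
Level (CPM, linear axes from 0) of 12 genes in each liver, 1 point per liver in the 4 groups, with a line at the group median. *Col1a1* and *Krt8* are highest in Cre livers on MCD, *Sdhd* and *Crp* are lowest there, and for *Wnt4* and *Hadhb* the *Flcn*-/- livers on MCD lie above all others.

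Subunits of oxidative phosphorylation, the respiratory chain and ATP synthase of mitochondria, had interactions of 1 sign. Of 55 nuclear-encoded subunits, 35 had a positive and 0 a negative interaction, all 55 had a positive sign, and the median was 0.47. In Cre livers 26 fell and 1 rose, and in *Flcn*-/- livers 32 rose and 0 fell. The difference lay on MCD, where 41 were higher in *Flcn*-/- livers with a median of 0.39, whereas on chow 1 was lower and 0 were higher with a median of −0.08. With library totals alone the median response in Cre livers turned to +0.25, with 29 that rose and 2 that fell there and 51 that rose in *Flcn*-/- livers, and 14 subunits were called, while the genotype difference on MCD stayed at 0.38 with 42 higher. The 35 calls became 19 without Cre MCD 1 and Cre MCD 3. With the interaction fitted in each sex, 13 were called in livers with *Xist* and 1 in livers without it. *Uqcrb* (chr13:66900617-66905378, minus strand), a complex III subunit, was at 135 to 161 CPM (median 146) in the 6 Cre Chow livers and 125, 107, 118, 113 and 123 CPM in the FLCN KO Chow livers. On MCD *Uqcrb* was at 79.1, 76.2, 85.3, 79.5 and 85.8 CPM in the Cre livers and 93.9 to 116 CPM (median 109.7) in the 6 *Flcn*-/- livers. Its response of −0.86 in Cre livers left no overlap between the diets, and the interaction was 0.72 ± 0.10 (SE), adjusted p = 0.00052. *Sdhd* (chr9:50596357-50603812, minus strand), which anchors complex II, was at 231 to 269.9 CPM (median 240.3) in the 6 Cre Chow livers and 257, 218, 222, 224 and 229.9 CPM in the FLCN KO Chow livers. On MCD *Sdhd* was at 165, 147, 171, 162 and 193 CPM in the Cre livers and 226 to 271 CPM (median 262) in the 6 *Flcn*-/- livers. All 5 Cre livers on MCD lay below the other 17, and the interaction was 0.69 ± 0.11 (SE), adjusted p = 0.0011. *Cox7b* (chrX:106015700-106022450, plus strand), a complex IV subunit, was at 254 to 306 CPM (median 268) in the 6 Cre Chow livers and 268, 210.4, 234, 228 and 212 CPM in the FLCN KO Chow livers. On MCD *Cox7b* was at 221, 234, 210.2, 202 and 262 CPM in the Cre livers and 275 to 320.5 CPM (median 302) in the 6 *Flcn*-/- livers. On MCD every *Flcn*-/- liver exceeded every Cre liver (0.41 ± 0.08 (SE), adjusted p = 0.0016), but its fall in Cre livers turned to +0.15 with library totals alone. *Ndufa9*, of complex I, lost a fall (0.47 ± 0.09 (SE), adjusted p = 0.0033), but its fall in Cre livers did not pass the test with library totals alone (−0.06, adjusted p = 0.42), nor did that of *Sdhd* (−0.13, adjusted p = 0.10). Of 8 subunits encoded by mitochondrial DNA, a list added after the values were seen, 8 had a positive sign and 1, *mt-Nd6*, was called (1.05 ± 0.21 (SE), adjusted p = 0.0043).

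The oxidative phosphorylation subunits, summed, were at 11913 to 13772 CPM (median 13314) in the 6 Cre Chow livers and 14484, 11220.2, 12328, 12489 and 11767 CPM in the FLCN KO Chow livers. On MCD the sum was at 10930.2, 12546, 10653, 11112 and 12273 CPM in the Cre livers and 13584 to 16366 CPM (median 15319) in the 6 *Flcn*-/- livers.

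**Figure D5:**
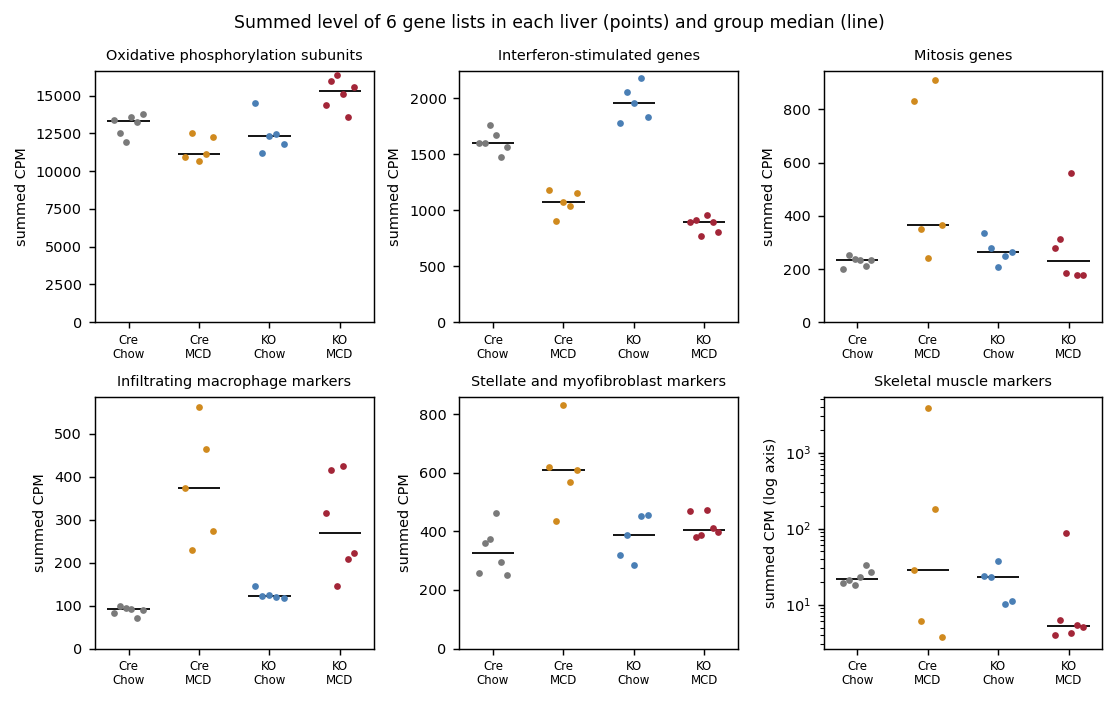
Summed level (CPM) of 6 gene lists in each liver, 1 point per liver in the 4 groups, with a line at the group median and a log axis for skeletal muscle markers. Mitosis genes are highest in Cre MCD 1 and Cre MCD 4, skeletal muscle markers in Cre MCD 3, and interferon-stimulated genes in the *Flcn*-/- livers on chow.

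Some fatty acid oxidation genes rose more on MCD without *Flcn*. Of 42 tested, 9 had a positive and 1 a negative interaction, which is 23.8% against 8.83% of all genes tested. In *Flcn*-/- livers 18 rose and 6 fell, beside 22.5% and 22.5% of all genes tested. In Cre livers 13 rose and 12 fell, near the 29.3% and 28.2% of all genes tested. On MCD 8 were higher and 3 lower without *Flcn*. With library totals alone 29 rose in *Flcn*-/- livers and 23 in Cre livers, 2 were called positive, and with the TMM factors 5 were when Cre MCD 1 or FLCN KO Chow 4 was left out. *Hadhb* (chr5:30155248-30184593, plus strand), the beta subunit of the mitochondrial trifunctional protein, was at 77.3 to 105 CPM (median 89.3) in the 6 Cre Chow livers and 96.2, 87.9, 93.1, 85 and 92.2 CPM in the FLCN KO Chow livers. On MCD *Hadhb* was at 121, 111, 126, 121 and 133 CPM in the Cre livers and 161 to 240.1 CPM (median 174) in the 6 *Flcn*-/- livers. On chow the genotypes overlapped, on MCD they did not, and the interaction was 0.59 ± 0.14 (SE), adjusted p = 0.011. *Hadha*, the alpha subunit (0.40 ± 0.10 (SE), adjusted p = 0.016, not called with library totals alone, adjusted p = 0.20), and *Acadl*, the long-chain acyl-CoA dehydrogenase (0.64 ± 0.13 (SE), adjusted p = 0.0051), rose more in the same way. *Hsd17b13* (chr5:103955440-103977410, minus strand), an enzyme on lipid droplets, was at 347 to 378 CPM (median 364) in the 6 Cre Chow livers and 400.1, 299, 387, 399 and 423 CPM in the FLCN KO Chow livers. On MCD *Hsd17b13* was at 366, 248, 426, 408 and 406 CPM in the Cre livers and 679.6 to 759 CPM (median 706) in the 6 *Flcn*-/- livers. Its diet response did not pass the test in Cre livers (0.03 ± 0.11 (SE), adjusted p = 0.84), and each of the 6 *Flcn*-/- livers on MCD exceeded all other livers, for an interaction of 0.87 ± 0.16 (SE), adjusted p = 0.0022.

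Amino acid catabolism fell in both genotypes and part of the list fell less without *Flcn*. Of 49 genes, 41 fell in Cre livers and 38 in *Flcn*-/- livers, and 7 had a positive and 1 a negative interaction. The 7 became 3 without Cre MCD 1, 4 without Cre Chow 1 or FLCN KO Chow 4 and 12 without Cre MCD 3, and 3 with library totals alone. *Amdhd1* (chr10:93523338-93540033, minus strand), an enzyme of histidine breakdown, was at 284 to 388 CPM (median 356) in the 6 Cre Chow livers and 280.5, 306, 292, 259 and 326 CPM in the FLCN KO Chow livers. On MCD *Amdhd1* was at 105, 127, 114, 102 and 98.3 CPM in the Cre livers and 177 to 218 CPM (median 195) in the 6 *Flcn*-/- livers. Its fall was −1.66 in Cre livers and −0.58 in *Flcn*-/- livers, the groups on MCD did not overlap, and the interaction was 1.08 ± 0.13 (SE), adjusted p = 7.8e-05. *Mccc2* of leucine breakdown (0.53 ± 0.11 (SE), adjusted p = 0.0051) and *Prodh2* of hydroxyproline breakdown (0.78 ± 0.19 (SE), adjusted p = 0.014) followed, the latter not called with library totals alone (adjusted p = 0.052). *Acmsd*, of tryptophan breakdown, fell more without *Flcn* (−1.35 ± 0.29 (SE), adjusted p = 0.0067).

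Interferon-stimulated genes had interactions of negative sign. Of 46 tested, 25 had a negative and 0 a positive interaction, and all 46 had that sign. Of the 25, 6 differed between the genotypes on chow only, 10 on MCD only, 4 on both diets and 5 on neither. Over the list, 11 genes were higher in *Flcn*-/- livers on chow and 15 lower on MCD, with median differences of 0.39 and −0.51. In *Flcn*-/- livers 42 fell on MCD and 1 rose, and in Cre livers 22 fell and 5 rose, with medians of −1.34 and −0.35. With library totals alone the median in Cre livers turned to +0.06 with 9 falling and 9 rising, 20 were higher on chow without *Flcn*, and 31 were called. Without Cre MCD 1 and Cre MCD 3 the 25 calls became 14. *Irf7* (chr7:141262706-141266481, minus strand), the transcription factor that amplifies interferon production, was at 34 to 51.4 CPM (median 43.7) in the 6 Cre Chow livers and 72.7, 64.8, 75, 76.8 and 55.8 CPM in the FLCN KO Chow livers. On MCD *Irf7* was at 29, 25, 24.6, 32 and 33.3 CPM in the Cre livers and 16.6 to 27 CPM (median 19.4) in the 6 *Flcn*-/- livers. The chow groups did not overlap, on MCD FLCN KO MCD 2 alone overlapped the Cre livers, and the interaction was −1.18 ± 0.18 (SE), adjusted p = 0.00071. *Oas1a* (chr5:120896256-120907521, minus strand), a sensor of double-stranded RNA, was at 3.64 to 5.78 CPM (median 4.18) in the 6 Cre Chow livers and 12.5, 7.13, 8.46, 12.8 and 7.76 CPM in the FLCN KO Chow livers. On MCD *Oas1a* was at 4.61, 3.84, 3.94, 5.92 and 3.84 CPM in the Cre livers and 1.38 to 3.92 CPM (median 2.43) in the 6 *Flcn*-/- livers. Its response in Cre livers did not pass the test (0.00 ± 0.22 (SE), adjusted p = 0.99), and its fall in *Flcn*-/- livers was −1.99 ± 0.22 (SE), adjusted p = 2.7e-07. *Oasl1* (chr5:114923240-114937915, plus strand), a relative of it, was at 11 to 28 CPM (median 18.3) in the 6 Cre Chow livers and 28.4, 18.2, 24.4, 33.5 and 23.2 CPM in the FLCN KO Chow livers. On MCD *Oasl1* was at 51.9, 68.8, 26.9, 43.7 and 46.1 CPM in the Cre livers and 9.21 to 21.5 CPM (median 18.1) in the 6 *Flcn*-/- livers. Its rise of 1.35 in Cre livers turned into a fall of −0.61 (adjusted p = 0.044). *Xaf1* gained a fall (−1.24 ± 0.20 (SE), adjusted p = 0.0011). Lymphocyte markers moved beside these genes: 10 of 23 fell on MCD in *Flcn*-/- livers (6 with library totals alone) and 1 in Cre livers, with 1 interaction called, and 7 of 7 T and NK cell markers had a negative sign with 0 called by edgeR (3 at unadjusted p under 0.05). The median interaction of the 23 lymphocyte markers was −0.34 in livers with *Xist* and −1.38 in livers without it. Of 5 erythroid markers, of which *Hbb-bs* was the most abundant, 3 rose on MCD in Cre livers and 0 in *Flcn*-/- livers, and *Hbb-bt* (−1.68 ± 0.48 (SE), adjusted p = 0.033) and *Hba-a1* (−1.50 ± 0.44 (SE), adjusted p = 0.039) had a negative interaction. These globin genes, named after their values were seen, have near-identical copies that may share reads, and they were called in 15 and 10 of the 22 fits that left out 1 liver. The summed erythroid markers overlapped between all 4 groups, at 97.0 to 433 CPM over all livers. The part of lymphocytes and blood in the interferon result was not tested.

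The promoter of *Oas1a* is shown because interferon regulatory factors bind pairs of GAAA that 2 bases of any kind separate, a motif searched on both strands after the values were seen. It was in 11 of 18 called interferon-stimulated genes with a promoter (61.1%), in 11 of 16 that were not called (68.8%) and in 3.83% of the genes tested. Of the 4 interferon-stimulated genes named above, the windows of *Irf7*, *Oasl1* and *Xaf1* held 0 matches. Its 2 overlapping matches are in capitals in the window chr5:120907496-120907595 (GRCm38.p6, minus strand, 5′ to 3′).
Oas1a: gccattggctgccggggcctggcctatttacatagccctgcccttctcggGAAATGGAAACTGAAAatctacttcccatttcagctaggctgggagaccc

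Some genes that MCD raised in Cre livers were high without *Flcn* on chow already. *Tuba8* (chr6:121210696-121226854, plus strand), an alpha-tubulin, was at 0.474 to 1.04 CPM (median 0.797) in the 6 Cre Chow livers and 26.5, 11.5, 25.5, 49.5 and 24.8 CPM in the FLCN KO Chow livers. On MCD *Tuba8* was at 29.5, 39.5, 34.9, 28.8 and 37.6 CPM in the Cre livers and 39.1 to 57.9 CPM (median 43.8) in the 6 *Flcn*-/- livers. The 6 Cre livers on chow lay below all others, the genotype difference was 5.12 ± 0.29 (SE), adjusted p = 3.3e-10 on chow and 0.42 ± 0.22 (SE), adjusted p = 0.21 on MCD, and its interaction of −4.70 ± 0.36 (SE), adjusted p = 1.5e-07 had the smallest adjusted p of the genes named here. *Gldn* (chr9:54286486-54341786, plus strand), gliomedin, known from peripheral nerve, was at 0.0609 to 1.12 CPM (median 0.321) in the 6 Cre Chow livers and 9.1, 6.77, 15.9, 11.6 and 4.2 CPM in the FLCN KO Chow livers. On MCD *Gldn* was at 12, 13.3, 6.66, 11.7 and 17.6 CPM in the Cre livers and 4.54 to 11.9 CPM (median 9.25) in the 6 *Flcn*-/- livers. Its groups on MCD overlapped, and the interaction was −5.14 ± 0.58 (SE), adjusted p = 3.6e-05, or −5.76 without Cre Chow 6. *Epdr1*, an ependymin-like lysosomal protein, and *Slc35f2*, a solute carrier, had interactions of −4.28 ± 0.66 (SE), adjusted p = 0.0008 and −3.82 ± 0.79 (SE), adjusted p = 0.0054. The first was −3.46 without FLCN KO Chow 4, and the second was −3.14 without FLCN KO Chow 1 and −4.47 without Cre Chow 6. *Cd63*, a tetraspanin of late endosomes and lysosomes, rose on MCD in both genotypes and was higher without *Flcn* on chow (adjusted p = 1.7e-07) and on MCD (adjusted p = 0.0016), with an interaction of −2.17 ± 0.43 (SE), adjusted p = 0.004. *Aqp7*, a glycerol channel, was at or under 3 counts in each Cre liver on chow and rose at least 16.6-fold there. *Cfap44*, a cilium protein, had 0 counts in all 6 Cre livers on chow and rose at least 11.1-fold.

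Lysosomal genes as a list were shifted by genotype, not by the interaction. Of 52 lysosomal enzymes and membrane proteins, 22 were higher in *Flcn*-/- livers on chow (36 with library totals alone) and 30 on MCD, but 3 had a negative and 2 a positive interaction, which is 9.62% against 8.83% of all genes tested. The median interaction of the list, 0.05, turned to −0.11 with library totals alone. CACGTG, the core of the motif that TFEB and TFE3 bind, was in 14 of 39 of their promoters (35.9%, against 11.7% of the genes tested). *Atp6v1h*, a subunit of the proton pump that acidifies lysosomes, gained a rise (0.85 ± 0.14 (SE), adjusted p = 0.0014). *Gaa*, acid alpha-glucosidase (0.50 ± 0.13 (SE), adjusted p = 0.024), lost a fall, but with library totals alone its interaction was 0.33 (adjusted p = 0.15) and it did not fall in Cre livers. *Gusb*, beta-glucuronidase (−0.49 ± 0.14 (SE), adjusted p = 0.029), was higher on chow and was not called without Cre MCD 4, FLCN KO Chow 4 or FLCN KO MCD 3. Of 24 genes of MiT-TFE factors and lysosomal signalling 1 had a positive and 1 a negative interaction (8.33%), and of 44 autophagy genes 1 positive and 0 negative (2.27%).

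In several other lists at most 5 genes were called. Of 35 genes of triglyceride synthesis and lipid droplets, 4 had a negative and 1 a positive interaction (14.3%, against 8.83% of all genes tested). *Mogat2*, a monoacylglycerol acyltransferase (−3.78 ± 0.53 (SE), adjusted p = 0.00052), and *Plin4*, a lipid droplet coat protein (−2.46 ± 0.37 (SE), adjusted p = 0.00071), were higher without *Flcn* on chow (4.64 and 4.85) and rose less on MCD. *Lpin3*, a phosphatidate phosphatase (−0.88 ± 0.22 (SE), adjusted p = 0.016), and *Cidec*, which enlarges lipid droplets (−2.34 ± 0.71 (SE), adjusted p = 0.042), also rose less. *Cidec* was called in 8 of the 22 fits that left out 1 liver and went to −1.63 without FLCN KO Chow 1. Of 28 p53 target genes, 3 had a negative interaction (*Phlda3*, *Plk2* and *Gtse1*) and 1 a positive one (*Ei24*), between −1.87 and 0.48 (14.3% called, against 8.83%). *Gtse1*, with adjusted p = 0.048, was called in 6 of those 22 fits, and *Ei24* was not called with library totals alone (adjusted p = 0.13). Of 16 immediate early genes, 3 had a negative and 0 a positive interaction: *Atf3*, the transcription factor *Klf6* (−1.22 ± 0.30 (SE), adjusted p = 0.015) and *Ier3* (−1.31 ± 0.40 (SE), adjusted p = 0.042), called in 5 of the 22 fits. Of 12 fetal liver and imprinted genes, *H19*, *Meg3*, *Lgals1* and *Peg3* were called, 3 negative and 1 positive. Of 68 cytosolic ribosomal proteins, 24 were lower in *Flcn*-/- livers on chow and 1 on MCD, but with library totals alone 2 were lower on chow. The 2 interactions called, *Rps27* (0.46 ± 0.14 (SE), adjusted p = 0.042) and *Rpl22* (0.36 ± 0.11 (SE), adjusted p = 0.046), did not pass with library totals alone (adjusted p = 0.18 and 0.31) and were called in 8 and 6 of the 22 fits that left out 1 liver. By edgeR 0 of 21 circadian clock genes, 0 of 16 heat shock genes, 0 of 9 neutrophil markers, 0 of 30 genes higher in male livers and 0 of 26 genes higher in female livers were called. At unadjusted p under 0.05 these counts were 0 clock genes, 1 heat shock gene, 5 neutrophil markers, 4 male-biased genes and 2 female-biased genes. Both limma-voom and DESeq2 called 1 neutrophil marker and 1 male-biased gene of them. In livers with *Xist* edgeR called 1 clock gene, 1 heat shock gene, 1 neutrophil marker, 4 male-biased and 4 female-biased genes, and in livers without it 1 female-biased gene. The median interaction of the female-biased genes was 1.28 in the former and −0.71 in the latter. Of these 30 male-biased genes 26 fell on MCD in Cre livers and 27 in *Flcn*-/- livers. Of the 15 skeletal muscle genes, whose level in Cre MCD 3 is given above, 14 rose on MCD in Cre livers, all 15 were lower in *Flcn*-/- livers on MCD, and the median interaction was −7.15 with 0 called by edgeR (4 at unadjusted p under 0.05, and 2 called in livers without *Xist*). Without Cre MCD 3, 11 of them could be tested, of which 0 differed between the genotypes on MCD.

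Among the genes with the largest interaction in each class, *Slc13a5* (chr11:72241989-72267222, minus strand), a citrate carrier of hepatocytes, was at 0.812 to 1.58 CPM (median 1.06) in the 6 Cre Chow livers and 1.4, 2.55, 2.62, 1.71 and 2.91 CPM in the FLCN KO Chow livers. On MCD *Slc13a5* was at 7.74, 3.53, 5.86, 6.11 and 7.58 CPM in the Cre livers and 0.689 to 2.17 CPM (median 1.04) in the 6 *Flcn*-/- livers. All 5 Cre livers on MCD lay above all others, the *Flcn*-/- livers fell on MCD (−0.90 ± 0.29 (SE), adjusted p = 0.014), and the interaction was −3.39 ± 0.41 (SE), adjusted p = 7.8e-05. *Wnt4* (chr4:137277489-137299726, plus strand), a Wnt ligand, was at 2.09 to 4.32 CPM (median 2.91) in the 6 Cre Chow livers and 4.28, 3.45, 2.62, 7.44 and 6.04 CPM in the FLCN KO Chow livers. On MCD *Wnt4* was at 5.76, 8.92, 7.64, 6.31 and 7.12 CPM in the Cre livers and 15.1 to 50.5 CPM (median 29.4) in the 6 *Flcn*-/- livers. All 6 *Flcn*-/- livers on MCD lay above all others, with an interaction of 1.53 ± 0.40 (SE), adjusted p = 0.021. *Sult1c2*, a sulfotransferase (1.22 ± 0.28 (SE), adjusted p = 0.011), *Ak4*, a mitochondrial adenylate kinase (1.28 ± 0.33 (SE), adjusted p = 0.019), and *Cabcoco1* (1.51 ± 0.31 (SE), adjusted p = 0.0049) gained a rise. *Peg3* (chr7:6703892-6730431, minus strand), a paternally expressed imprinted gene, was at 3.13 to 11.3 CPM (median 3.99) in the 6 Cre Chow livers and 4.44, 7.25, 6.45, 15.2 and 7.71 CPM in the FLCN KO Chow livers. On MCD *Peg3* was at 7.37, 7.41, 9.14, 7.13 and 12 CPM in the Cre livers and 26.2 to 82.9 CPM (median 37.4) in the 6 *Flcn*-/- livers. All *Flcn*-/- livers on MCD lay above all others. Its interaction of 1.82 ± 0.51 (SE), adjusted p = 0.03 was not called in 6 of the 22 fits that left out 1 liver. *Meg3* (chr12:109541001-109571726, plus strand), a maternally expressed noncoding RNA, was at 1.64 to 15.6 CPM (median 10.5) in the 6 Cre Chow livers and 21, 23.8, 7.05, 20.1 and 12.6 CPM in the FLCN KO Chow livers. On MCD *Meg3* was at 13.5, 9.7, 63.4, 24.3 and 10.1 CPM in the Cre livers and 1.38 to 5.95 CPM (median 3.05) in the 6 *Flcn*-/- livers. Cre MCD 3 was far above its group, and the interaction of −3.67 ± 0.75 (SE), adjusted p = 0.0051 was −2.92 (adjusted p = 0.0083) without it. Its neighbour *Rian* went from −4.45 to −3.30 without that liver. *H19*, a fetal noncoding RNA, went from −5.72 to −3.53 without FLCN KO Chow 4 and −5.13 without Cre MCD 3, and *Ighm*, the IgM heavy chain of B cells, from −4.18 to −2.24 without Cre MCD 3.

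Single livers decided other values. *Cyp2a22* (chr7:26931631-26939384, minus strand), a cytochrome P450, was at 0.247 to 0.541 CPM (median 0.313) in the 6 Cre Chow livers and 0.545, 9.74, 0.336, 0.993 and 0.162 CPM in the FLCN KO Chow livers. On MCD *Cyp2a22* was at 66.6, 4.35, 0.281, 0.097 and 0.205 CPM in the Cre livers and 0 to 0.345 CPM (median 0.158) in the 6 *Flcn*-/- livers. The interaction of −9.14 ± 1.99 (SE), adjusted p = 0.0077 came down to −5.62 without Cre MCD 1 and −6.93 without FLCN KO Chow 2, the 2 livers with the most Y-linked counts beside *Xist*. It was −10.87 in the livers with *Xist* and −0.15 (adjusted p = 0.99) in those without. *Dmbt1* (chr7:131032053-131121630, plus strand), a mucosal scavenger protein, was at 0.0609 to 325 CPM (median 1.56) in the 6 Cre Chow livers and 0, 0.0594, 0, 0.11 and 0.0539 CPM in the FLCN KO Chow livers. On MCD *Dmbt1* was at 0.0412, 0.129, 0.141, 0 and 0.717 CPM in the Cre livers and 0 to 27.7 CPM (median 1.46) in the 6 *Flcn*-/- livers. Cre Chow 5 alone exceeded the next liver by over 10 times, and *Dmbt1* was at or under 3 counts in every *Flcn*-/- liver on chow, so its fitted interaction is no measure of size. *Ak1* and *Myo18b* were high in Cre MCD 3 alone, at 24.7 and 19.1 CPM, beside its skeletal muscle genes, and at most 1.36 and 0.679 CPM in other Cre livers on MCD. Without Cre MCD 3 neither could be tested, because its mean count fell under 10. Of the other 21 fits that left out 1 liver, *Ak1* was called in 17 and *Myo18b* in 4. *Sprr1a*, a cornified envelope protein induced by injury, rose in all 5 Cre livers, to between 13.4 and 54.6 CPM, which is at least 161-fold, and reached 0.649 to 4.78 CPM in *Flcn*-/- livers. All 6 Cre livers on chow were at or under 3 counts for *Sprr1a*, so its fitted interaction (−7.09, adjusted p = 0.018) is no measure of size. It was −5.75 without FLCN KO Chow 5 and then not called (adjusted p = 0.19), −8.51 without Cre Chow 5 and −0.83 (adjusted p = 0.96) in the livers without *Xist*. *Akr1c18*, a steroid dehydrogenase (−5.05 ± 1.04 (SE), adjusted p = 0.0053), and *Rhof*, a small GTPase (−4.34 ± 0.95 (SE), adjusted p = 0.0079), also rose less, the former with −4.33 without Cre MCD 5. The interaction of *Rhof* was −5.53 in livers with *Xist* and −1.56 (adjusted p = 0.54) in those without. *Cyp46a1*, the cholesterol 24-hydroxylase, was at 0.517 to 3.22 CPM in all Cre livers and 24.5 to 146.2 CPM in all *Flcn*-/- livers, but its interaction of 1.80 (adjusted p = 0.039) held in 8 of 22 fits that left out 1 liver. It was 2.80 in livers with *Xist* and 0.38 (adjusted p = 0.86) in those without. The edgeR test of the difference between the sexes called 0 genes, with adjusted p = 0.89 for *Cyp46a1* and 0.91 for *Cyp2a22*.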

How the data were processed

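Poly(A) RNA of 22 mouse livers was sequenced as single reads. Per the labels and the study's methods, the authors used bcl2fastq, Trimmomatic, STAR and HTSeq with GRCm38 and deposited raw counts per gene. Versions, annotation release, strand setting and use of the molecular identifiers are not given in the sources used here, so overlapping or antisense genes cannot be told apart. Groups came from the labels. A minimum mean count of 10 per library, as in the study, left 14062 of 55573 genes. The counts were fitted in 1 model of 4 groups by edgeR 4.0.16 (quasi-likelihood test, TMM factors, R 4.3.3), and the interaction and the 4 simple contrasts were tested with Benjamini-Hochberg adjustment over all genes. The study used limma. P-values measure the spread between the mice of these groups. Libraries held 13751347 to 21144388 counts, which limits genes of few counts, and a floor of 3 counts per library set the bounds on folds.

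A gene was called lost, gained, reversed, smaller or larger from the adjusted p of each diet response. Genes were named by rule: *Flcn*, *Gpnmb* and *Rragd*, up to 6 genes per class with the largest interaction and a mean of at least 1 CPM, and up to 4 called members per list with the smallest interaction p. *Col4a3* and others outside a list came from the class rule. *Cidec*, *Ttr*, the globin genes and the most abundant genes of marker sums were named outside these rules. The 43 function lists, 15 marker lists, members and tests were chosen with earlier results of these data known, and 1 list was added later. Positions are from GENCODE M21 and promoters from RefSeq (GRCm38.p6). The fit was tested on simulated data. Alternatives were limma-voom (limma 3.58.1), DESeq2 1.42.0, other filters, factors and covariates, and subsets of libraries.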

Additional observations from a re-analysis of the deposited data

Results flagged for a closer look

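In groups of 5 or 6 livers, a liver far from the others was looked for in 35 genes (140 groups) and 6 marker lists (24 groups). For normally distributed values chance gives such a value in about 1 of 20 groups, but CPM of low or uneven genes are not so distributed. Some of the genes were also named for a large interaction, so the number found cannot be set against that share. In all 17 such values were found, 11 over genes and 6 over marker lists. Of these, 5 were in Cre MCD 3.

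Cre MCD 3 was the highest of its group for summed skeletal muscle markers (3811 CPM), smooth muscle markers (207.2 CPM), B cell markers (94.0 CPM) and mesothelial markers (31.8 CPM), and for *Meg3* (63.4 CPM). FLCN KO MCD 3 was the highest of its group for skeletal muscle markers (87.6 CPM), and FLCN KO Chow 1 for infiltrating macrophage markers (144.8 CPM).

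*Dmbt1* stood apart in Cre Chow 5 (324.9 CPM), Cre MCD 5 (0.717 CPM) and FLCN KO MCD 6 (27.7 CPM), and *Cyp2a22* in Cre MCD 1 (66.6 CPM) and FLCN KO Chow 2 (9.74 CPM). The other values were *Cdc20* in Cre Chow 2 (2.55 CPM), *Cx3cr1* in FLCN KO Chow 4 (10.5 CPM), *Gldn* in Cre Chow 6 (1.12 CPM), *Hadhb* in FLCN KO MCD 4 (240.1 CPM) and *Peg3* in FLCN KO MCD 6 (82.9 CPM). The cause of these values was not tested.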

How the results depend on the processing

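The 779 negative and 463 positive interactions, of which 361 differed on chow and 770 on MCD, changed by over 1.5 times under the following settings, and the cause was not tested. With no filter on low counts 214 were positive and 495 differed on MCD, and with 10 counts in every library 236 differed on chow. Without the 5 chow libraries of low uniquely mapped share 470 were negative and 178 differed on chow. Leaving out each liver in turn gave 529 to 877 negative and 272 to 577 positive interactions, with 169 to 428 that differed on chow and 494 to 893 on MCD. Of the settings chosen after seeing the data, library totals without factors gave 1236 negative and 177 positive interactions. A sex term with a sex by diet term, also chosen then, gave 1254 that differed on MCD, and 423 gained responses in place of 178. The 10 livers without *Xist* alone gave 59 negative and 4 positive interactions, with 37 on chow and 32 on MCD, from fewer samples. Of 4225 values of named genes under all settings, 3716 kept their direction and side of the threshold, 508 no longer passed and 1 reversed: *Mrgprb11-ps*, at −0.055 in the livers without *Xist*. The lowest counts limit genes of a few reads per library, such as *Dmbt1*.

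With the replicate number as a replicate block, 353 negative and 199 positive interactions were called, of which 184 differed on chow and 369 on MCD. Gained responses numbered 64 in that fit. Over 31 pairs of livers with the same number the mean correlation of their deviations was 0.00613 (−0.551 to 0.470), and 4 of 22 livers correlated best with their own number, so the numbers were taken as names only.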

Other observations

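Among genes with under 1000 exon bases (674 tested), the median interaction was 0.19 and the median genotype difference on chow was −0.17, beside a median interaction of 0.03 over all genes. With the interaction fitted in each sex, 631 genes were negative and 376 positive in livers with *Xist*, and 172 negative and 22 positive in livers without it.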
